A study of Mus musculus with 10 samples.

Results

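The mitochondrial respiratory chain was described here through the nuclear genes for complexes II, III, IV and V and for cytochrome c. Members were the protein-coding genes whose symbols begin with Uqcr, Cox4 to Cox8, Atp5f1, Atp5m, Atp5p or Atp5if, the succinate dehydrogenase genes Sdha to Sdhd, and Cyc1 and Cycs. The rule used symbols and gene type, and no measured value. It gave 52 gene identifiers with 51 symbols (Atp5po has a pair of identifiers) out of 55359 genes in the table. Complex II had 4 members, complex III 9, complex IV 19 and complex V 19, and Cycs is cytochrome c. A further 5 matching symbols were of other gene types and were left out. Above 0 in some library were 49 members, and 48 had a mean of at least 0.1 FPKM (fragments scaled to the length of the gene and to the fragments of the library) over the 10 libraries and were tested. The other 4 were Cox7b2, Cox8c and a second identifier of Atp5po, all listed at 0 in every library, and Cox8b, whose values are given with its family. Cox5b-ps counted as a member because the annotation types it as protein-coding, although its name is that of a pseudogene.

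Electrons from succinate enter the chain at complex II (succinate dehydrogenase), and those from complexes I and II pass through ubiquinol to complex III, by cytochrome c to complex IV (cytochrome c oxidase), and so to oxygen. Complexes III and IV pump protons, and complex V (ATP synthase) lets them flow back to make ATP. All subunits of complex II come from the nucleus, whereas complexes III, IV and V also hold subunits from the mitochondrial genome. Several subunits of complex IV and the membrane ring of complex V exist as paralogs that are used in different tissues, such as liver, muscle, lung or testis. In bone marrow, erythroid precursors depend on mitochondria for heme synthesis.

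The libraries were RNA-seq of bone marrow cells depleted of mature blood lineages (Lin- cells), with 5 from Dhx9f/f mice (WT) and 5 from Dhx9f/f;MX1 mice (cKO). Both genotypes carried the floxed alleles of Dhx9, an RNA and DNA helicase, and the cKO mice in addition an MX1-Cre that is switched on by interferon and was induced with poly(I:C). This Cre acts in any cell that responds to interferon, and the methods give poly(I:C) to mice with this Cre without stating whether the sequenced WT mice received it too. By the methods sex was randomized, and the labels give neither the sex nor the age of each mouse. The comparison asks what the loss of Dhx9 does to the transcripts of these cells.

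Dhx9 itself was at 69.0, 72.4, 72.2, 69.5 and 65.4 FPKM in WT 1 to WT 5, and at 131, 149, 131, 156 and 132 FPKM in cKO 1 to cKO 5. The targeted gene thus went against its labels, with more and not less RNA under the label cKO (log2 fold change 1.0, adjusted p = 1.39e-05 from limma). For bone marrow cells of Dhx9f/f;MX1 mice, the study reports reduced DHX9 expression, measured by qRT-PCR and western blot. What lies behind the difference from the FPKM values was not tested, and the libraries are called by their labels throughout. Every direction given below is that of the libraries labelled cKO against those labelled WT. Depth, read from the steps in the FPKM values, was 13835700 to 18710800 fragments per library, and 3 fragments of a gene of 1000 bases were worth 0.160 to 0.217 FPKM. Xist was at 99.2 to 128 FPKM in WT 3, WT 4 and WT 5 and at most at 0.09 FPKM in the other 7 libraries, and Ddx3y, on the Y chromosome, was at most at 0.05 FPKM in the former and at 19.7 to 38.5 FPKM in the latter, so sex differed within WT and in part between the groups. The progenitor gene Kit averaged 45.9 FPKM in the libraries labelled WT and 25.5 FPKM in those labelled cKO, and Cd34 averaged 25.6 and 3.10 FPKM.

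Many promoters of respiratory genes hold sites for NRF1, for the ETS factor GABP (NRF2) and for YY1. The letters GCATGCGC (NRF1), CCGGAAG (ETS) and AAGATGGC (YY1) were searched on both strands, from 250 bases before to 50 bases after the gene start, in the windows of NCBI RefSeq (build GRCm38.p6). Of the members, 38 had a window. The NRF1 letters stood in 8 of them (21.1%), those of Sdhb, Uqcrc1, Uqcr11, Cycs, Cox6a1, Atp5mc2, Atp5me and Atp5mg, against 689 of 17492 protein-coding genes (3.94%). The ETS letters stood in 13 (34.2%), against 2265 of all (12.9%), and the YY1 letters in 3 (7.89%), against 624 (3.57%). The letters of these motifs do not contain one another. A match is a description of the sequence, and no binding was measured here.

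The 250 bases before the gene start are shown for a complex IV gene that was higher in the libraries labelled cKO (Cox6a1) and for neighbours in the chain that were not (Cox6b1 of complex IV and Uqcrh of complex III). They were chosen after their values were seen. The sequences are written 5′ to 3′ on the strand of the gene, which is the minus strand for all of them, and motif letters are in capitals. Cox6a1 (chr5:115348959-115349208) holds the NRF1 letters on both strands, overlapping each other, at positions -162 and -160 from the gene start and, as the reverse complement, the ETS letters at -16. Cox6b1 (chr7:30626115-30626364) and Uqcrh (chr4:116075071-116075320) hold the ETS letters, also as the reverse complement, at -28 and -10.
Cox6a1: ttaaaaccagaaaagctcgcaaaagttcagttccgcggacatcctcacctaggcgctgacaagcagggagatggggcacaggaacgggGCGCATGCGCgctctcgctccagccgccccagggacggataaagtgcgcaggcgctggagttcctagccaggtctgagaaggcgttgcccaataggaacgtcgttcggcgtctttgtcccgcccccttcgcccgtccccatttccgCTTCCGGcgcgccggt
Cox6b1: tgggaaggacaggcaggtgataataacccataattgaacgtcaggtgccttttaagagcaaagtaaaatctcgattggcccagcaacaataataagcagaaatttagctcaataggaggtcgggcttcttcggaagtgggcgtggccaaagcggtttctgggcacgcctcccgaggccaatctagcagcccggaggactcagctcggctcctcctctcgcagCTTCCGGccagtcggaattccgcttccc
Uqcrh: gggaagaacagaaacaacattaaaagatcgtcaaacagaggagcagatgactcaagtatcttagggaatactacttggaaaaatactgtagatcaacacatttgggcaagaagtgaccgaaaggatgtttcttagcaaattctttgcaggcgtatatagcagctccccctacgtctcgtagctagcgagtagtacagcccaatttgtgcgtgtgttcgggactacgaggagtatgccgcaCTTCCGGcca
With the ETS letters 4 of 13 tested members were called higher (median log2 fold change 0.11), and without them 13 of 23 (median 0.27). With the NRF1 letters 4 of 8 were called higher (median 0.34), and without them 13 of 28 (median 0.24). With the YY1 letters 1 of 3 was called higher (median 0.10), and without them 16 of 33 (median 0.27). Among all genes tested 16.7% were called higher. These counts are a description and were not tested.

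Transcripts of many subunits were slightly higher in the libraries labelled cKO. At an adjusted p under 0.05 alone (limma on log2(FPKM + 0.1), Benjamini-Hochberg over 18742 genes), 23 of the 48 tested members were higher, where 16.7% of all genes tested were higher. Only Cox4i2 was lower, where 28.3% of all genes were lower, and 24 members were not called. The changes were small. With the fold limit of 2 that the study used, limma called 0 members higher, where 4.6% of all genes were, and 1 lower (Cox4i2), where 16.8% of all genes were. At an unadjusted p under 0.05, 25 members were higher, where 20% of all genes were, and 2 were lower, where 32.3% were. All 5 libraries labelled cKO lay above all 5 labelled WT for 19 members (10.6% of all genes), and below them for 0 members (21.6% of all genes). The median log2 fold change of the tested members was 0.27, that of all genes tested was -0.11, and 39 members were above 0 and 9 below. Without WT 3, WT 4 and WT 5, the libraries with high Xist, 21 members were higher, where 8.82% of all genes tested were.

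**Figure D1:**
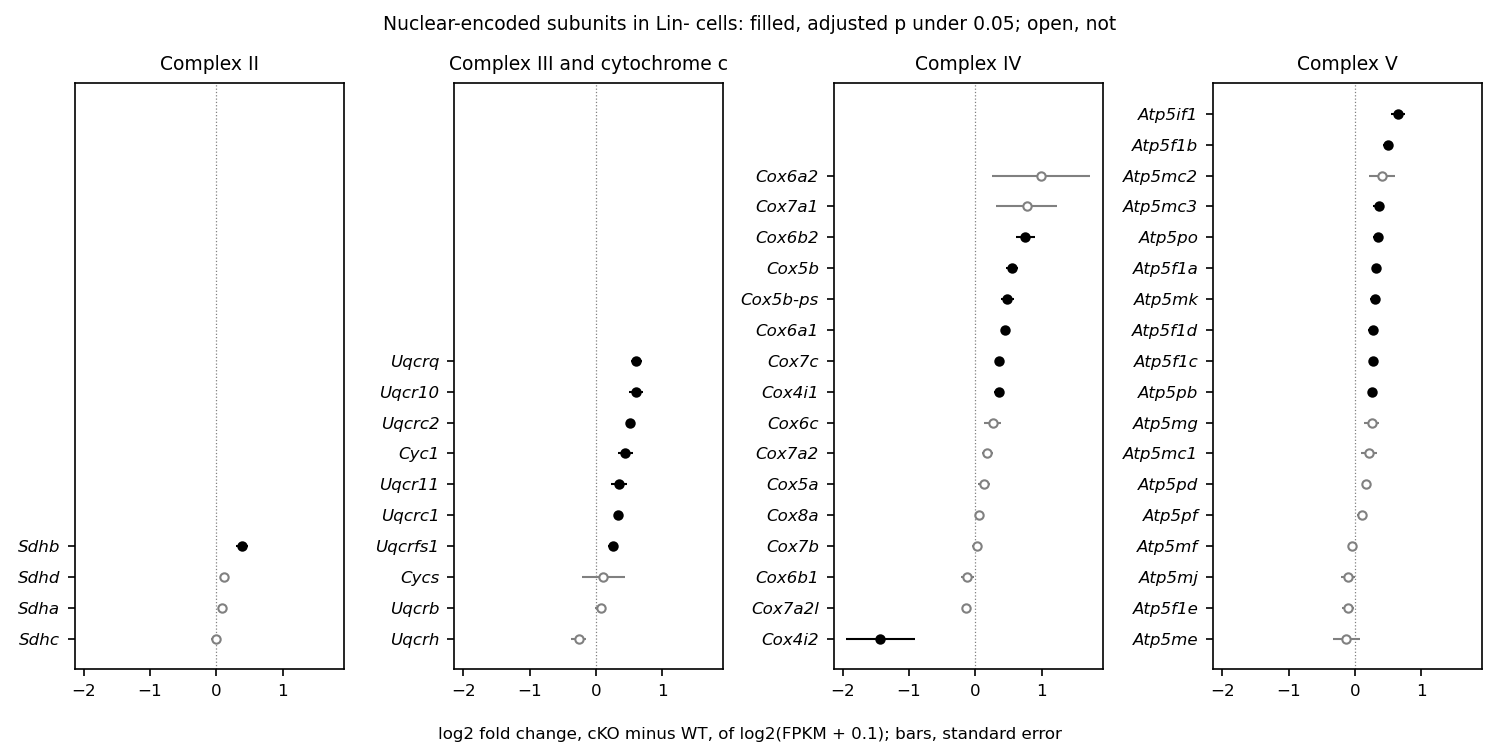
Each point is a tested member, placed by its log2 fold change of log2(FPKM + 0.1), libraries labelled cKO minus libraries labelled WT, with its standard error as a bar (n = 5 each) and a panel for each complex. Filled points passed an adjusted p under 0.05. Of 48 points 23 are filled to the right of 0, and Cox4i2 is the filled point to the left, at -1.43.

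Marker genes of blood cell types differed between the groups as well. Of 27 erythroid marker genes 24 were called higher and 1 lower at adjusted p alone, and their summed level was 2337 to 4024 FPKM in the libraries labelled WT and 5832 to 9405 FPKM in those labelled cKO. Hbb-bs, a beta globin gene, averaged 158 FPKM and 1028 FPKM, and Car1, an erythroid carbonic anhydrase, averaged 695 FPKM and 2573 FPKM. Lower were 16 of 20 genes of monocytes and dendritic cells (summed level 1328 to 2199 FPKM against 90.9 to 475.6), 8 of 18 of neutrophils (2808 to 4120 against 156.8 to 2780), 14 of 14 of megakaryocytes (378.2 to 1601 against 138.9 to 243.1), 8 of 11 of B-lymphoid cells (34.8 to 41.4 against 1.41 to 11.9) and 11 of 12 of mast cells, basophils and eosinophils (888.4 to 1994 against 141.1 to 756.7). At adjusted p alone 16.7% of all genes tested were higher and 28.3% lower. Of the neutrophil genes 10 were not called, and 5 had a log2 fold change above 0 (at most 1.43) without being called higher. Of 9 genes of stroma and endothelium 7 were lower and 1 higher (21.5 to 30.5 against 4.98 to 10.1). Pecam1 averaged 18.8 FPKM in the libraries labelled WT, most of their summed level, and 2.47 FPKM in those labelled cKO. Which cells its RNA came from was not tested. Col1a1 averaged 1.5 and 0.114 FPKM. The higher gene, Col1a2, averaged 1.17 and 4.51 FPKM. In bulk RNA, fewer cells of a type and less RNA per cell cannot be told apart. The part of this composition in the changes of the respiratory genes was not tested.

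By complex, the difference was smallest for complex II and largest for complex III. The mean of log2(FPKM + 0.1) over the tested subunits was taken in each library. For complex II it was 5.94 to 6.12 in the libraries labelled WT and 6.10 to 6.29 in those labelled cKO, so the groups overlapped, with WT 3 above cKO 1. For complex III it was 6.24 to 6.53 against 6.64 to 6.83, and for complex V 5.64 to 5.86 against 5.89 to 6.13, with no overlap. For complex IV it was 5.14 to 5.39 against 5.26 to 5.60, and cKO 1 lay inside the WT range. This mean weighs members near the floor as much as abundant ones, and Cox6a2 was at 0.43 FPKM in cKO 1. The summed FPKM of complex IV did not overlap, at 1406 to 1542 against 1610 to 1899. By the mean of log2(FPKM + 0.1), complex I, which is not among the members, was at 5.04 to 5.23 against 5.33 to 5.60. The differences of the means were 0.14 for complex II, 0.32 for III, 0.23 for IV, 0.22 for V and 0.27 for complex I. Whether the complexes differed from each other was not tested.

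**Figure D2:**
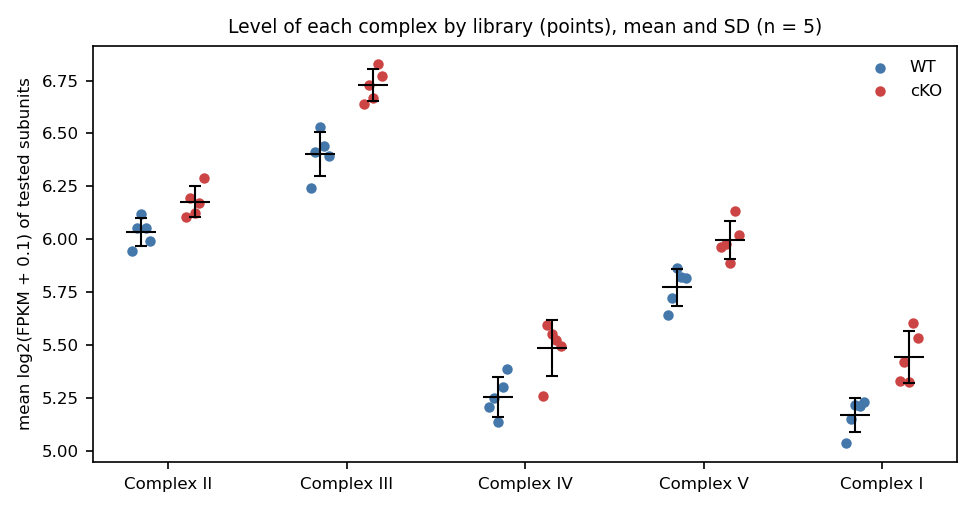
Each point is a library, placed by its mean of log2(FPKM + 0.1) over the tested subunits of a complex, with the mean and SD of the 5 libraries labelled WT (blue) and the 5 labelled cKO (red). The groups separate for complexes I, III and V, and overlap through cKO 1 for complex II (6.10) and complex IV (5.26).

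The libraries also differed within their groups. Over the 46 members with a mean of at least 1 FPKM, WT 1 was the lowest of its group for 31 and WT 3 the highest for 28. Among the libraries labelled cKO, cKO 1 was the lowest for 18 and cKO 3 for 19, and cKO 4 and cKO 5 were each the highest for 16.

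Complex II oxidises succinate to fumarate as part of the citric acid cycle. Its flavoprotein Sdha and iron-sulfur protein Sdhb form the catalytic head, and Sdhc and Sdhd anchor it in the inner membrane. Of the 4 subunits Sdhb alone (ENSMUSG00000009863, chromosome 4 from 140688502 to 140709380, plus strand, GRCm39) was called higher, where 16.7% of all genes tested were. Sdhb was at 36.6, 41.7, 44.4, 40.8 and 39.8 FPKM in WT 1 to WT 5, and at 42.7, 56.2, 55.8, 57.1 and 56.1 FPKM in cKO 1 to cKO 5. It was near 56 FPKM in cKO 2 to cKO 5, whereas cKO 1 lay inside the WT range. The means were 40.6 ± 2.85 FPKM in the libraries labelled WT and 53.6 ± 6.12 FPKM in those labelled cKO (SD, n = 5 each, log2 fold change 0.39, standard error 0.0892, adjusted p = 0.00446 from limma). Sdha was at 90.2, 92.7, 95.8, 93.6 and 93.7 FPKM in WT 1 to WT 5, and at 93.6, 99.6, 90.7, 99.4 and 112 FPKM in cKO 1 to cKO 5. The groups overlapped, with the highest value in cKO 5 (log2 fold change 0.08, standard error 0.0605, adjusted p = 0.29). Sdhd was at 127, 135, 148, 131 and 124 FPKM in WT 1 to WT 5, and at 151, 144, 138, 137 and 147 FPKM in cKO 1 to cKO 5. WT 3 lay among the values labelled cKO (log2 fold change 0.11, standard error 0.06, adjusted p = 0.153). Sdhc averaged 36.4 ± 1.77 FPKM in the libraries labelled WT and 36.2 ± 2.79 FPKM in those labelled cKO (log2 fold change -0.01).

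Complex III, the cytochrome bc1 complex, had the largest share of members called higher, 7 of 9, with a median log2 fold change of 0.35. By the same rule 16.7% of all genes tested were higher. Uqcrq was at 40.8, 46.7, 48.7, 45.0 and 43.0 FPKM in WT 1 to WT 5, and at 55.4, 73.1, 68.4, 76.5 and 69.6 FPKM in cKO 1 to cKO 5. This small subunit lies in the membrane beside cytochrome b (ENSMUSG00000044894, chromosome 11 from 53318749 to 53322047, minus strand, GRCm39), and all libraries labelled cKO exceeded all labelled WT, with cKO 1 the nearest. Its means were 44.9 ± 3.11 FPKM in the libraries labelled WT and 68.6 ± 8.04 FPKM in those labelled cKO (SD, n = 5 each, log2 fold change 0.61, standard error 0.0887, adjusted p = 0.000362 from limma). Uqcr10 was at 122, 145, 156, 156 and 156 FPKM in WT 1 to WT 5, and at 191, 213, 218, 276 and 220.1 FPKM in cKO 1 to cKO 5. Uqcr10 is another small subunit, and the groups again did not overlap, with WT 1 the lowest and cKO 4 the highest library (log2 fold change 0.60, standard error 0.103, adjusted p = 0.000891). Uqcrc2 was at 77.7, 82.5, 94.4, 83.1 and 80.8 FPKM in WT 1 to WT 5, and at 104, 128, 119, 125 and 123 FPKM in cKO 1 to cKO 5. Uqcrc2 is a core protein on the matrix side, and its groups were apart, with cKO 1 nearest to WT (log2 fold change 0.52, standard error 0.0726, adjusted p = 0.000289). The other core protein, Uqcrc1, rose from 69.2 to 87.2 FPKM with no overlap (log2 fold change 0.33, adjusted p = 0.00139).

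The electron carriers of complex III that are encoded in the nucleus rose with overlap between the groups. Cyc1, cytochrome c1, rose from 59.4 to 80.5 FPKM (log2 fold change 0.44, adjusted p = 0.00853), and Uqcrfs1, the Rieske iron-sulfur protein, from 97.6 to 117 FPKM (log2 fold change 0.26, adjusted p = 0.0133). The small subunit Uqcr11 rose from 101 to 129.6 FPKM (log2 fold change 0.35, adjusted p = 0.0357), but its highest library, cKO 4, was at 171 FPKM and without it the adjusted p was 0.0509 and the log2 fold change 0.24 (0.0196 to 0.0942 over 21 other settings). Leaving out cKO 2, cKO 5, WT 1, WT 2, WT 3 or WT 4 also took its adjusted p above 0.05. Uqcrb, a further small subunit, averaged 89.5 and 93.3 FPKM (log2 fold change 0.07, adjusted p = 0.536), and 86.7% of its transcript has a near-identical copy elsewhere in the genome.

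Uqcrh, the hinge protein that helps cytochrome c1 meet cytochrome c, was the member of complex III with a log2 fold change below 0 and was singled out after its values were seen. Uqcrh was at 110.1, 111, 111, 116 and 121 FPKM in WT 1 to WT 5, and at 124, 81.2, 78.9, 108 and 91.3 FPKM in cKO 1 to cKO 5. In cKO 2, cKO 3, cKO 4 and cKO 5 it was below all libraries labelled WT, and in cKO 1 above them all. It was not called (log2 fold change -0.26, standard error 0.115, adjusted p = 0.0893), but without cKO 1 it was lower, with a log2 fold change of -0.35 (adjusted p = 0.00778 from limma, 0.00778 to 0.403 over 21 other settings). The ratio of Uqcrh to Uqcrq, which does not depend on how libraries are scaled, was 2.27 to 2.82 in the libraries labelled WT and 1.11 to 2.23 in those labelled cKO. This pair was also chosen after its values were seen. Uqcrq had the largest log2 fold change of complex III (0.61), so the ratio mixes its rise with the change of Uqcrh.

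Cytochrome c itself carries electrons between complexes III and IV and, once released, starts apoptosis. Cycs was at 5.24, 5.95, 7.56, 3.83 and 3.26 FPKM in WT 1 to WT 5, and at 4.42, 7.13, 6.97, 2.52 and 7.73 FPKM in cKO 1 to cKO 5. The groups overlapped over nearly their whole range, and cKO 4 was the lowest and cKO 5 the highest of all libraries (log2 fold change 0.11, standard error 0.323, adjusted p = 0.813 from limma). Copies at other places in the genome cover 44% of its transcript, and its level was far below those of the complexes it links.

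**Figure D3:**
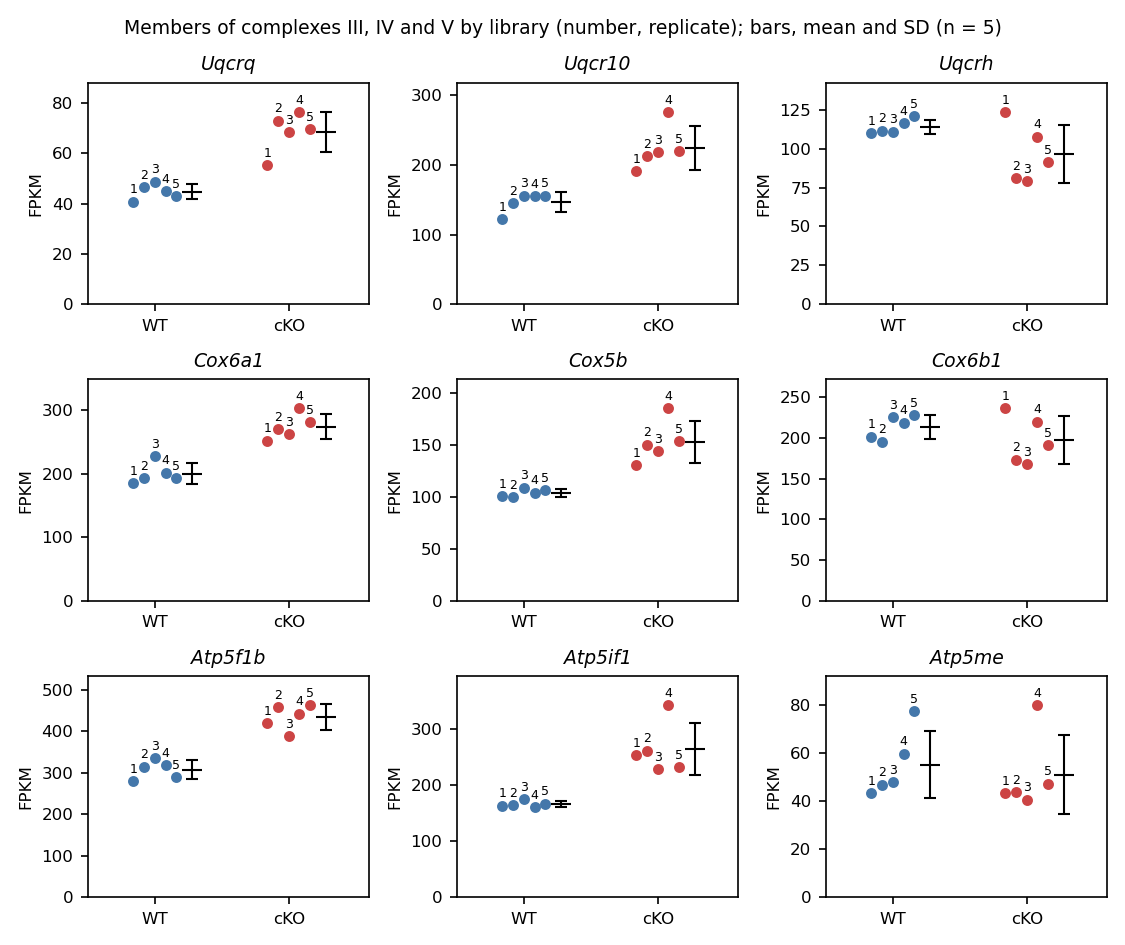
Points are FPKM of 9 members of complexes III, IV and V in each library (number, replicate), with the mean and SD of the 5 libraries labelled WT (blue) and the 5 labelled cKO (red). Uqcrq, Uqcr10, Cox6a1, Cox5b, Atp5f1b and Atp5if1 separate by label, whereas Uqcrh and Cox6b1 are below WT in part of the libraries labelled cKO and highest in cKO 1, and Atp5me is high in WT 5 and cKO 4.

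Complex IV had 6 of 16 tested members called higher and 1 lower, where 16.7% and 28.3% of all genes tested were. The log2 fold changes ran from -1.43 to 0.99, with a median of 0.31. Cox5b was at 100.5, 99.6, 109, 104 and 107 FPKM in WT 1 to WT 5, and at 130.3, 150.1, 144, 185 and 154 FPKM in cKO 1 to cKO 5. Cox5b is a zinc-binding subunit on the matrix side, and its groups did not overlap, with cKO 4 the highest library. Its means were 104 ± 3.89 FPKM in the libraries labelled WT and 152 ± 20.2 FPKM in those labelled cKO (SD, n = 5 each, log2 fold change 0.55, standard error 0.0842, adjusted p = 0.000484 from limma). Cox5b-ps rose in parallel from 36.2 to 50.6 FPKM (log2 fold change 0.48, adjusted p = 0.00274), at 0.293 to 0.386 times Cox5b in the libraries labelled cKO and 0.297 to 0.378 times in those labelled WT. The whole of its transcript and 55.6% of that of Cox5b match elsewhere in the genome, so the division of reads between them is uncertain. Cox7c, a small membrane subunit, rose from 25.0 to 32.0 FPKM without overlap (log2 fold change 0.36, adjusted p = 0.00117), and 74.1% of its transcript has copies.

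Cox5a, partner of Cox5b, averaged 48.9 and 53.6 FPKM (log2 fold change 0.13, adjusted p = 0.264) and was not called. Cox6c averaged 37.8 and 45.8 FPKM (log2 fold change 0.26, adjusted p = 0.126), and Cox7b 118 and 119.9 FPKM (log2 fold change 0.02, adjusted p = 0.872). Cox7a2l, known for joining complexes III and IV into supercomplexes, averaged 101 and 91.7 FPKM (log2 fold change -0.14, adjusted p = 0.114). Without cKO 1 it was lower, with a log2 fold change of -0.17 (adjusted p = 0.0362 from limma, 0.0241 to 0.479 over 21 other settings), and copies cover 85.2% of its transcript.

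The tissue paralogs of complex IV were taken family by family. In the Cox4 family, the ubiquitous Cox4i1 made up nearly all of the signal. Cox4i1 was at 201, 201, 220.2, 212 and 206 FPKM in WT 1 to WT 5, and at 244, 259, 249, 303 and 279 FPKM in cKO 1 to cKO 5. It was higher in every library labelled cKO than in any labelled WT (log2 fold change 0.35, standard error 0.0682, adjusted p = 0.0017). Cox4i2 was at 0.53, 0.99, 0.41, 0.68 and 0.84 FPKM in WT 1 to WT 5, and at 0.18, 0.3, 0.79, 0 and 0.08 FPKM in cKO 1 to cKO 5. Cox4i2, the paralog of lung that is known for its response to low oxygen (ENSMUSG00000009876, chromosome 2 from 152595625 to 152606959, plus strand, GRCm39), was the only member called lower (log2 fold change -1.43, standard error 0.522, adjusted p = 0.0443), yet cKO 3 was as high as the upper WT libraries and cKO 4 was listed at 0. All its values rest on few fragments. The call was lost on leaving out cKO 1, cKO 2, cKO 4, cKO 5, WT 1, WT 2, WT 4 or WT 5 in turn, with adjusted p-values of 0.0536 to 0.0958 (0.00645 to 0.193 over 20 other settings).

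In the Cox6a family, Cox6a1 is the form of most tissues and Cox6a2 that of heart and skeletal muscle. Cox6a1 was at 185, 193, 228, 202 and 193 FPKM in WT 1 to WT 5, and at 252, 271, 262, 303 and 282 FPKM in cKO 1 to cKO 5. The groups did not overlap (log2 fold change 0.45, standard error 0.0725, adjusted p = 0.000593 from limma). Cox6a2 was at 3.18, 1.42, 1.52, 3.14 and 2.54 FPKM in WT 1 to WT 5, and at 0.43, 9.58, 12.4, 4.53 and 7.21 FPKM in cKO 1 to cKO 5. Cox6a2 was above all libraries labelled WT in cKO 2, cKO 3, cKO 4 and cKO 5 and below them all in cKO 1. It was not called (log2 fold change 0.99, standard error 0.739, adjusted p = 0.303), and without cKO 1 it was higher, with a log2 fold change of 1.78 (adjusted p = 0.00177 from limma, 0.00177 to 0.535 over 21 other settings). Its share of the summed FPKM of the family was 0.662% to 1.69% in the libraries labelled WT and 0.170% to 4.50% in those labelled cKO. The exact permutation test of the mean shares, two-sided, gave p = 0.167 and 0.291 after adjustment over 5 shares.

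Of the 5 shares of paralogs tested, that of Cox6b2 alone passed after adjustment. Cox6b1 was at 202, 195, 226, 219 and 228 FPKM in WT 1 to WT 5, and at 236, 173, 168, 219.9 and 191 FPKM in cKO 1 to cKO 5. Cox6b1, the form of most tissues, overlapped between the groups, and cKO 1 was the highest of all libraries (log2 fold change -0.12, standard error 0.0997, adjusted p = 0.346 from limma). Cox6b2 was at 71.0, 55.6, 54.8, 50.4 and 51.6 FPKM in WT 1 to WT 5, and at 106, 92.9, 80.2, 126 and 77.0 FPKM in cKO 1 to cKO 5. Cox6b2, known as the testis form (ENSMUSG00000051811, chromosome 7 from 4754789 to 4756093, minus strand, GRCm39), was higher in all libraries labelled cKO than in all labelled WT, of which WT 1 was the highest. Its means were 56.7 ± 8.31 FPKM in the libraries labelled WT and 96.3 ± 19.9 FPKM in those labelled cKO (SD, n = 5 each, log2 fold change 0.75, standard error 0.141, adjusted p = 0.00145 from limma). Without WT 3, WT 4 and WT 5 the log2 fold change was 0.59 (adjusted p = 0.0687, 0.00106 to 0.0687 over 21 other settings).

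Cox6b2 made up 26.1%, 22.1%, 19.5%, 18.7% and 18.5% of the summed FPKM of the family in WT 1 to WT 5, and 30.9%, 34.9%, 32.3%, 36.3% and 28.7% in cKO 1 to cKO 5. The shares did not overlap, and WT 1 was nearest to the libraries labelled cKO. The means were 21.0% ± 3.19 and 32.6% ± 3.05 (SD, n = 5 each), a difference of 11.7 percentage points. The exact permutation test over libraries, two-sided, gave p = 0.00794, the smallest that 5 against 5 allows, and 0.0397 after Benjamini-Hochberg adjustment over 5 shares. Between WT 1 and WT 2, the WT libraries with low Xist, and the 5 labelled cKO the difference was 8.54 percentage points, with an adjusted p of 0.476 from the exact permutation test, the smallest that 2 against 5 libraries and 5 shares allow, so the test could not pass. A share within a library does not depend on the scaling of the library, and no copy of either transcript was found elsewhere. The ratio of Cox6b1 to Cox6a1 was 0.991 to 1.18 in the libraries labelled WT and 0.641 to 0.938 in those labelled cKO. It mixes the rise of Cox6a1 (log2 fold change 0.45) with the change of Cox6b1 (-0.12), which was not called.

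**Figure D4:**
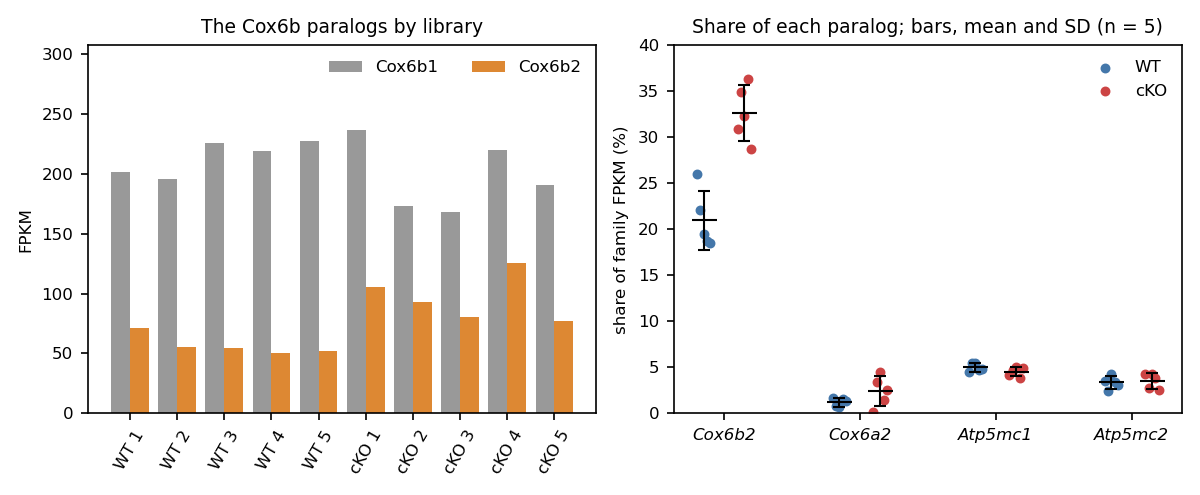
Left, FPKM of Cox6b1 (grey) and Cox6b2 (orange) in each of the 10 libraries. Right, the share of a paralog in the summed FPKM of its family, with points for libraries and the mean and SD of 5 libraries of each label, where Cox6b2 separates the groups and Cox6a2, Atp5mc1 and Atp5mc2 overlap.

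In the Cox7a and Cox8 families the muscle forms were near the floor. Cox7a1 was at 0.45, 0.9, 0.12, 0.6 and 1.37 FPKM in WT 1 to WT 5, and at 0.95, 1.52, 0.58, 1.13 and 1.17 FPKM in cKO 1 to cKO 5. Cox7a1, of heart and skeletal muscle, overlapped between the groups at values of few fragments (log2 fold change 0.77, standard error 0.464, adjusted p = 0.201). Cox7a2 was at 63.3, 68.3, 80.3, 70.5 and 76.8 FPKM in WT 1 to WT 5, and at 86.0, 77.5, 72.2, 80.7 and 90.6 FPKM in cKO 1 to cKO 5. Cox7a2, the form of liver and most tissues, overlapped between the groups and was not called (log2 fold change 0.18, standard error 0.082, adjusted p = 0.097). Cox8a was at 227, 239, 256, 245 and 236 FPKM in WT 1 to WT 5, and at 234, 259, 253, 248 and 263 FPKM in cKO 1 to cKO 5. Cox8a, the form of most tissues, was among the most abundant members and overlapped between the groups (log2 fold change 0.06, standard error 0.0551, adjusted p = 0.382). Cox8b, of muscle, was listed at 0 in all libraries labelled WT and in cKO 2, cKO 3 and cKO 5, and at 0.20 and 0.19 FPKM in cKO 1 and cKO 4, with no mean of at least 0.1 FPKM and no test. Cox8c and Cox7b2 were at 0.

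Markers of the tissues that use these muscle forms were scarce. For the counts that follow, 16.7% of all genes tested were higher and 28.3% lower. Of 17 genes of skeletal and heart muscle 6 could be tested, of which 4 were lower and 1 higher (Acta1, from 0.014 to 0.434 FPKM), and Mb, Myh2, Myh4 and Myh7 were at 0 in every library. Their summed level was 10 to 13.4 FPKM in the libraries labelled WT and 9.09 to 18.8 FPKM in those labelled cKO, most of it from Mylpf, which also is expressed outside muscle. Mylpf was highest in cKO 1, at 17.8 FPKM, where Cox6a2 was lowest. These values were set side by side after they were seen, and which cells hold the Cox6a2 RNA was not tested. Of 9 adipocyte genes 3 could be tested, 1 higher and 1 lower, with a summed level of 2.79 to 3.63 FPKM against 2.75 to 4.65 FPKM, and Ucp1 and Lep at 0.

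Complex V had 9 of 18 tested members called higher and none lower, where 16.7% and 28.3% of all genes tested were. For 9 members all libraries labelled cKO lay above all labelled WT, as for 10.6% of all genes. The log2 fold changes ran from -0.13 to 0.65. In its catalytic head, the alpha subunit Atp5f1a rose from 339 to 424 FPKM (log2 fold change 0.32, adjusted p = 0.00131 from limma). Atp5f1b was at 280, 315, 335, 319 and 290 FPKM in WT 1 to WT 5, and at 419.8, 459, 388, 443 and 464 FPKM in cKO 1 to cKO 5. This beta subunit carries the catalytic sites, its groups did not overlap, and cKO 3 was nearest to WT. Its means were 308 ± 22.6 FPKM in the libraries labelled WT and 435 ± 31.1 FPKM in those labelled cKO (SD, n = 5 each, log2 fold change 0.50, standard error 0.0728, adjusted p = 0.000362 from limma). Of the central stalk, Atp5f1c rose from 136 to 164 FPKM (log2 fold change 0.27, adjusted p = 0.00509) and Atp5f1d from 75.5 to 91.1 FPKM (log2 fold change 0.27, adjusted p = 0.00755), both without overlap. The epsilon subunit Atp5f1e averaged 56.6 and 52.6 FPKM (log2 fold change -0.10, adjusted p = 0.415) and was not called.

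Atp5if1 encodes the inhibitor that stops ATP synthase from running backwards and is also known for a role in heme synthesis in erythroblasts (ENSMUSG00000054428, chromosome 4 from 132257215 to 132262823, minus strand, GRCm39). Atp5if1 was at 163, 164, 175, 161 and 167 FPKM in WT 1 to WT 5, and at 253, 261, 228, 342 and 232 FPKM in cKO 1 to cKO 5. The libraries labelled WT lay within a narrow range, all libraries labelled cKO were above them, and cKO 4 stood highest. Its means were 166 ± 5.38 FPKM in the libraries labelled WT and 263 ± 46.3 FPKM in those labelled cKO (SD, n = 5 each, log2 fold change 0.65, standard error 0.101, adjusted p = 0.000502 from limma). The ratio of Atp5if1 to Atp5f1b was 0.504 to 0.582 in the libraries labelled WT and 0.499 to 0.773 in those labelled cKO, so the ranges overlapped and cKO 4 stood above the rest.

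The membrane ring of complex V is built from identical mature proteins encoded by Atp5mc1, Atp5mc2 and Atp5mc3. Atp5mc3 was at 98.2, 108, 118, 117 and 116 FPKM in WT 1 to WT 5, and at 129.9, 140.4, 129, 164 and 154 FPKM in cKO 1 to cKO 5. Atp5mc3 carried most of the family's FPKM and was higher without overlap (log2 fold change 0.36, standard error 0.0828, adjusted p = 0.00467 from limma). Atp5mc1 was at 4.73, 6.36, 7.16, 6.05 and 6.02 FPKM in WT 1 to WT 5, and at 5.85, 7.16, 7.12, 6.87 and 8.15 FPKM in cKO 1 to cKO 5. The groups overlapped (log2 fold change 0.21, standard error 0.123, adjusted p = 0.182). Atp5mc2 was at 3.76, 2.84, 5.64, 4.34 and 3.89 FPKM in WT 1 to WT 5, and at 6.08, 4.13, 5.99, 6.88 and 4.16 FPKM in cKO 1 to cKO 5. Here too the groups overlapped, and neither minor paralog was called (log2 fold change 0.41, standard error 0.201, adjusted p = 0.123). Atp5mc2 passed without WT 3 (log2 fold change 0.53, adjusted p = 0.0464) and under quantile normalization (0.74, adjusted p = 0.0147), and Atp5mc1 under quantile normalization (0.46, adjusted p = 0.0202). The share of Atp5mc3 was 91.7% ± 0.825 in the libraries labelled WT and 91.9% ± 0.774 in those labelled cKO (SD, n = 5 each, exact permutation p = 0.556, adjusted 0.694). That of Atp5mc1 was 4.98% ± 0.460 and 4.53% ± 0.501 (exact permutation p = 0.175, adjusted 0.291), and that of Atp5mc2 3.35% ± 0.686 and 3.52% ± 0.847 (exact permutation p = 0.714, also after adjustment). Copies elsewhere in the genome cover 85.8% of the Atp5mc1 and 89.2% of the Atp5mc2 transcript, so both levels are uncertain.

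The peripheral stalk holds the catalytic head still against the ring. Its top, Atp5po, rose from 92.0 to 118 FPKM (log2 fold change 0.35, adjusted p = 0.00281 from limma), and Atp5pb from 70.5 to 84.5 FPKM (log2 fold change 0.26, adjusted p = 0.00913), both without overlap. Atp5pd averaged 98.6 and 111 FPKM (log2 fold change 0.17, adjusted p = 0.0783) and Atp5pf 35.3 and 37.8 FPKM (log2 fold change 0.10, adjusted p = 0.238), and neither was called. Of the small membrane subunits, Atp5mk rose from 24.8 to 30.6 FPKM (log2 fold change 0.30, adjusted p = 0.0105). The others, Atp5me, Atp5mf, Atp5mg and Atp5mj, were not called, with log2 fold changes from -0.13 (Atp5me) to 0.25 (Atp5mg). Atp5mg averaged only 6.25 and 7.49 FPKM, and copies elsewhere in the genome cover 85.5% of its transcript, so its level is uncertain. Atp5me was at 43.4, 47.0, 48.0, 59.9 and 77.5 FPKM in WT 1 to WT 5 and at 43.3, 43.8, 40.7, 80.1 and 47.3 FPKM in cKO 1 to cKO 5, so WT 5 and cKO 4 stood far above the other libraries of their groups.

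The annotated canonical transcripts of the 23 members called higher had a median length of 1653 bases (448 to 4030), and those of the 24 not called 772.5 bases (371 to 3619). The median of the mean FPKM was 104.7 for the former and 53.8 for the latter. Both are descriptions, and the part of length or level in the calls was not tested. Of 9 tested members with copies over at least 50% of their transcript 3 were called higher, and of the other 39 members 20. Their median log2 fold changes were 0.25 and 0.27, and 16.7% of all genes tested were called higher. The 9 had a median level of 43.4 FPKM and the 39 one of 83.3 FPKM. The sources used here do not state whether counting used strand, so reads of genes on the opposite strand could not be separated where they overlap a member, as for Sdhd, Atp5pf and Cox8b.

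Other genes of the pathway were taken from lists. Of 38 subunits of complex I, 20 were called higher and 1 lower at adjusted p alone, with a median log2 fold change of 0.26. By that rule 16.7% of all genes tested were higher and 28.3% lower. With the fold limit, Ndufa12 was higher (from 13.5 to 33.4 FPKM, log2 fold change 1.24, adjusted p = 0.0044) and Ndufb2 lower (from 7.16 to 2.78 FPKM, log2 fold change -1.41, adjusted p = 0.00039). Its most abundant subunits, Ndufb9 and Ndufb10, rose from 81.6 to 115 FPKM and from 85.2 to 110.3 FPKM. Of 13 citric acid cycle enzymes other than succinate dehydrogenase 10 were higher and none lower, among them malate dehydrogenase Mdh2 (from 74.1 to 108 FPKM, log2 fold change 0.54, adjusted p = 0.000866) and citrate synthase Cs (from 60.4 to 77.5 FPKM, log2 fold change 0.36, adjusted p = 0.00311).

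Of the 6 mitochondrially encoded subunits of complexes III, IV and V, 3 were called higher. Mt-Co1, the catalytic core of complex IV, rose from 7399 to 9981 FPKM (log2 fold change 0.42, adjusted p = 0.0147 from limma). Mt-Cytb, the partner of the nuclear subunits in complex III, averaged 3451 and 3422 FPKM (log2 fold change -0.01, adjusted p = 0.918). Without WT 3, WT 4 and WT 5, the count of mitochondrially encoded subunits called higher was 0 by limma. In that fit 8.82% of all genes tested were higher, against 16.7% with all libraries.

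Assembly factors, which build the complexes without staying in them, were counted by complex. For complex II 0 of 4 passed in either direction, by adjusted or unadjusted p from limma. For complex III 1 of 9 was higher and 1 lower, for complex IV 6 of 23 were higher and 2 lower, and for complex V 2 of 5 were higher. These small counts moved when 1 library was left out. Without cKO 1, 1 was higher for complex II and 4 for complex III. For complex III the count lower was 2 without cKO 3, and 0 without any single other library except WT 1. For complex IV it was 1 without cKO 2 or any single library labelled WT, and for complex V the count higher was 1 without cKO 2, cKO 4, cKO 5, WT 2, WT 4 or WT 5. Quantile normalization gave 2, 3 and 11 higher for complexes II, III and IV. With the fold limit, the complex IV assembly factor Coa4 was lower (from 3.25 to 1.63 FPKM, log2 fold change -1.02, adjusted p = 0.00773), with no overlap between the groups. Of 13 tested regulators of nuclear respiratory genes 1 was higher and 2 lower, with a median log2 fold change of -0.01. Without cKO 1, 2 regulators were higher and 4 lower, without cKO 4, 2 were higher, and the count higher was 4 under quantile normalization and 0 with a covariate for Xist. The lower ones were the transcription factors Yy1 (from 36.9 to 30.3 FPKM, log2 fold change -0.29, adjusted p = 0.00255) and Sp1 (from 31.8 to 26.6 FPKM, log2 fold change -0.26, adjusted p = 0.00879). Over all these lists together 43 of 111 tested genes were higher and 6 lower, where 16.7% and 28.3% of all genes tested were. Without WT 3, WT 4 and WT 5, 27 were higher, where 8.82% of all genes tested were.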

How the data were processed

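RNA-seq of Lin- bone marrow cells gave 5 WT and 5 cKO libraries, each taken as 1 mouse, which the labels do not state. The submitters' processing notes name cutadapt 1.9.1, HISAT2 2.0.1 and HTSeq 0.6.1 and the build GRCm39. The authors deposited FPKM per gene, rounded to 2 decimals. The annotation, gene lengths and strand setting behind them are not given in the sources used here. All columns of per-sample values were mapped to a sample by name, with 0 left over.

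Values were tested as log2(FPKM + 0.1) with limma 3.58.1 (lmFit, eBayes with trend, two-sided) in R 4.3.3, and p-values were adjusted by Benjamini-Hochberg over 18742 genes whose mean reached 0.1 FPKM. The table has 55359 genes. Some library showed a value above 0 for 28093, and 54749 identifiers were found in GENCODE M39 (GRCm39). Calls were made at an adjusted p under 0.05, alone or with a fold change of at least 2. The pseudocount makes changes of low genes look smaller than they are. Nothing in the labels says more of the mice than genotype and number, so p-values measure the spread between these libraries. Depth came from genes with 1 transcript, of whose low values 95.2% to 95.8% were whole fragments within 0.2. It was 13835700 to 18710800 fragments, and the floor of 3 fragments covers counting error only.

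Shares of paralogs (members with a mean of at least 1 FPKM, in percent, computed from the deposited FPKM) were compared by exact permutation with Python 3.11.15 and scipy 1.17.1. Copies are matches of at least 97% identity over at least 100 bases elsewhere in GRCm39 (blastn 2.17.0). The steps were tested on simulated data.

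Values in every library are given for members called with the fold limit, for the 3 members of each complex with the largest absolute change and a mean of at least 1 FPKM, for all measured members of paralog families and for Cycs. Of other lists, called genes with the fold limit (at most 3) and the 2 with the highest mean could be named. Uqcrh, Atp5me, Yy1, Sp1, the promoters shown and the ratios of Uqcrh to Uqcrq and of Cox6b1 to Cox6a1 were chosen after their values were seen. The members and lists were chosen with earlier results of these data known. Alternatives were pseudocounts of 0.01 and 1, other filters, 3 other scalings, the replicate number as a block, eBayes without a trend, a covariate for Xist, each library left out and, chosen after seeing the data for the limma results, only libraries with low Xist.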

Additional observations from a re-analysis of the deposited data

Results flagged for a closer look

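Of 114 groups of 5 libraries examined, a single library stood far from the others in 7, where chance would give about 5.7. In cKO 1, Atp5f1d was at 80.7 FPKM (91.2 to 95.1 in the other libraries labelled cKO) and Sdhb at 42.7 FPKM (55.8 to 57.1). In cKO 4, Cox6c was at 63.2 FPKM (38.0 to 43.3), Atp5me at 80.1 FPKM (40.7 to 47.3) and the inhibitor Atp5if1 at 342 FPKM (228 to 261). In WT 1, Cox6b2 was at 71.0 FPKM (50.4 to 55.6 in the other libraries labelled WT). In WT 3, the share of Atp5mc3 in its family was 90.2% (91.9% to 92.1%).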

How the results depend on the processing

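Of 24 members that passed at adjusted p alone, 20 passed under all 21 other settings and 1 more under all but the 7 libraries with low Xist (2 labelled WT, 5 labelled cKO), and the count called higher was 21 to 27. The count called lower, 1 as reported (Cox4i2), was 0 with a pseudocount of 0.01, no filter, a mean of at least 1 FPKM, no trend, a covariate for Xist or only libraries with low Xist, 2 under quantile normalization (Uqcrh and Cox7a2l), and 0 to 2 with 1 library left out. With the fold limit, 1 lower as reported, it was 0 under each of these settings, under quantile normalization and with a pseudocount of 1, and 0 to 1 with 1 library left out. The count higher with the fold limit was 0 to 1 with 1 library left out (Cox6a2 without cKO 1). Uqcr11 and Uqcrfs1 did not pass under quantile normalization. Of the members not called as reported, Atp5mc2, Sdhd and Cox7a2 passed without WT 3 (adjusted p = 0.0464, 0.0423 and 0.0499), Atp5pd without cKO 3 (adjusted p = 0.0229) and Atp5mg without cKO 5 (adjusted p = 0.0378). With median-ratio scaling Sdhd, Cox7a2, Atp5pd and Atp5mg passed (adjusted p = 0.0357, 0.0352, 0.0245 and 0.037 from limma). Cox7a2 also passed with the covariate for Xist (adjusted p = 0.04), and Atp5mg under quantile normalization (adjusted p = 0.00544). The causes were not tested.

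Quantile normalization moved the median of all genes tested from -0.11 to 0.10. Relative to that median, the members were 0.37 higher as reported and 0.14 higher under quantile normalization. The median of complex II, 0.10 as reported, was 0.17 with median-ratio scaling and 0.01 under quantile normalization. That of complex III, 0.35, was 0.25 under quantile normalization and 0.48 with the covariate for Xist and with low Xist alone. In the other respiratory lists the count higher was 27 with low Xist alone, where 8.82% of all genes tested were higher. The count lower, 6 as reported, was 3 under quantile normalization, 3 with the covariate and 2 with low Xist alone. The Cox6b2 share difference was 10.7 to 12.9 percentage points with 1 library left out, where the adjusted p of 0.0794 is the smallest that 4 against 5 and 5 shares allow, and 8.54 points with low Xist alone (adjusted p = 0.476, exact permutation, the smallest that 2 against 5 and 5 shares allow).

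Libraries of the same replicate number correlated at -0.01 to 0.117 in their deviations from the group means, and 5 of 10 libraries correlated best with their own number. The highest correlations of all were between libraries of the same number, at 0.117 for number 1 and 0.093 for number 5. These values do not decide whether the numbers pair the mice. The labels do not state a pairing, and the numbers were not used as pairs in the main tests. With the replicate number as a block, 24 members were higher (Atp5mc2 in addition, log2 fold change 0.41, adjusted p = 0.0477) and 0 lower (0 lower also with the fold limit), and the Cox6b2 share difference of 11.7 had an adjusted p of 0.312 by exact permutation of 5 pairs, which cannot pass. Calls of low members such as Cox4i2 are limited by depth, with 3 fragments of 1000 bases worth up to 0.217 FPKM.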
